A study of Drosophila melanogaster with 3 samples.

Results

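The genes described here switch off the fly photoresponse or supply the light receptor with its fold and its chromophore. They are 10 listed genes, found by FlyBase ID in a table of 17558 genes, and they comprise the arrestins *Arr1* and *Arr2*, the receptor kinase *Gprk1*, the phosphatase *rdgC*, the lipid-cycle genes *rdgA* and *rdgB*, the opsin chaperone *ninaA*, and the chromophore genes *ninaB*, *ninaD* and *santa-maria*. All 10 matched an ID and were counted in every library. Polyadenylated RNA was sequenced from the heads of untreated adult wild-type Drosophila melanogaster, decapitated under CO2 after growth at 25°C, with 3 replicate libraries in 1 group. The design text names the flies CantonS, while the methods of the study give *w1118* for flies called wild type, and the labels give neither sex nor an age beyond adult. The labels name no light regime, so each value is a level in whole heads, where fewer cells of a type and less RNA per cell cannot be told apart.

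In fly photoreceptors, light turns rhodopsin into metarhodopsin, which activates a Gq protein and the phospholipase C NORPA, and TRP and TRPL channels open. Arrestin binding to metarhodopsin ends the receptor's activity, a receptor kinase phosphorylates it, and the phosphatase RDGC removes the phosphates again. The lipid that phospholipase C consumes is rebuilt through diacylglycerol kinase (RDGA) and a phosphatidylinositol transfer protein (RDGB), and mutants of these genes lose their photoreceptors. The major rhodopsin, Rh1, leaves the endoplasmic reticulum with the cyclophilin NINAA, and it carries a retinal-type chromophore made from dietary carotenoids by NINAB after uptake through the scavenger receptors NINAD and SANTA-MARIA.

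The libraries held 6299265 to 8332583 counts, so that 1 count was worth 0.120 to 0.159 counts per 1000000 gene counts of a library (CPM), and 9161 to 9387 genes per library had at least 10 counts. All 10 photoreceptor markers were detected, and their summed level was 40592, 41649 and 42444 CPM in replicates 1, 2 and 3. Of these sums, *ninaE* alone supplied 20659, 22791 and 22164 CPM. Markers of the other cell types of a head had counts as well, none of them at 0 in the sum over libraries. Some had very few, with 2, 2 and 6 counts for *fln* of muscle and 3, 2 and 5 for *He* of haemocytes. The 4 neuronal markers in the table summed to 3162 to 3736 CPM, and 5 glial markers to 3328 to 3603. The 4 pigment cell markers summed to 2036 to 2382 CPM, and 5 muscle markers to 4185 to 5158. The 3 haemocyte markers summed to 267 to 389 CPM, of which *Hml* supplied 230 to 343. The 5 fat body markers summed to 20715 to 30211 CPM, of which *Yp1* supplied 7397 to 12147.

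Together the 10 genes took 1.75%, 1.87% and 1.81% of the counts of replicates 1, 2 and 3, with a mean of 1.81% ± 0.0603 (SD, n = 3). The arrestins alone supplied 86.2% ± 1.56 of that share. The lipid-cycle pair took 0.161% ± 0.0211 of all counts, the 3 chromophore genes 0.0391% ± 0.000299, *rdgC* 0.0291% ± 0.0021, *Gprk1* 0.0115% ± 0.000913 and *ninaA* 0.00788% ± 0.000243 (SD, n = 3). Relative to its mean, the chromophore share varied least between libraries and the lipid-cycle share most. The chromophore genes singly varied more than their sum, with coefficients of variation of 3.01% (*ninaB*), 3.84% (*santa-maria*) and 10.9% (*ninaD*). In replicate 3 *ninaB* was highest and *santa-maria* lowest. Of the 10100 genes with at least 10 counts in sum, whose median was 26.5 CPM, 9 of the 10 genes lay above the median and *ninaD* below it. The median rank of the 10 genes was at 92.2% of detected genes by CPM and at 89.1% per kilobase of exon.

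**Figure D1:**
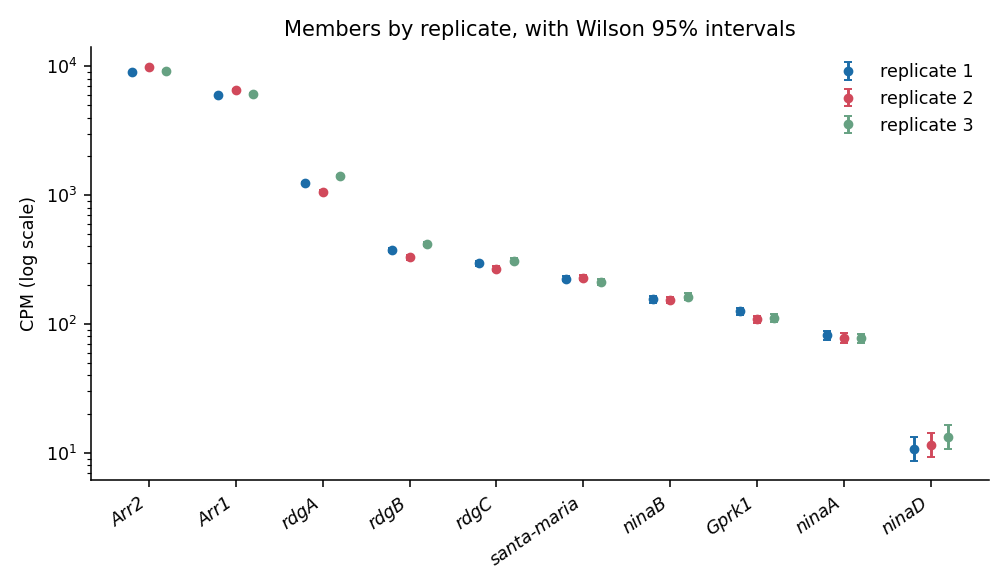
CPM of each of the 10 genes (y axis, log scale) in each of the 3 replicate libraries (colours), with Wilson 95% intervals of the share of counts, which cover counting error only. The arrestins lie near 6223 and 9361 CPM, *rdgA* near 1240 CPM, 6 genes between 78.8 and 373 CPM, and *ninaD* at 11.8 CPM.

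**Figure D2:**
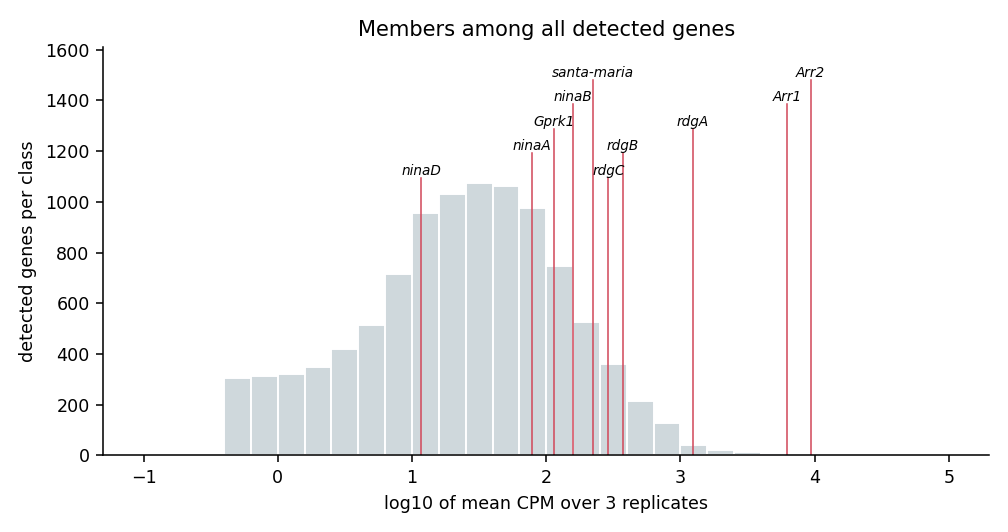
Histogram of the log10 mean CPM (x axis) of all 10100 detected genes (y axis, genes per class of 0.2), with a vertical line at the mean of each of the 10 genes. Line heights only separate the names. *Arr2* and *Arr1* lie in the far upper tail, with 4 and 5 genes above them, and *ninaD* lies left of the median of 26.5 CPM.

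*Arr2* was the most abundant member. *Arr2* (FBgn0000121, chromosome 3L, 8647261 to 8648936, minus strand, dm6 coordinates) encodes the major photoreceptor arrestin and has 1 annotated transcript of 1547 bases. It had 74934, 72086 and 58469 counts in replicates 1, 2 and 3, or 8993, 9809 and 9282 CPM, a mean of 9361 CPM ± 414 (SD, n = 3). Only 4 genes of the whole table had a higher mean CPM, and only 4 had a higher mean per kilobase.

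*Arr1* followed directly. *Arr1* (FBgn0000120, chromosome 2L, 18078269 to 18081307, plus strand) encodes the other visual arrestin, which is known for the light-driven internalization of rhodopsin. It had 49574, 48591 and 38468 counts, or 5949, 6612 and 6107 CPM, a mean of 6223 CPM ± 346 (SD, n = 3). The Wilson intervals of the 3 libraries did not overlap for either arrestin. They cover counting error only, which is small at high counts. Both arrestins were highest in replicate 2 and lowest in replicate 1. Their ratio barely moved, with a log2 value of 0.59 ± 0.018 for *Arr2* over *Arr1* in counts (higher in 3 of 3 libraries, exact sign-flip permutation test, two-sided, p = 0.25, the smallest that 3 libraries allow).

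Per kilobase the arrestins were further apart, and by how much depended on the length assigned to *Arr1*. *Arr1* has 3 annotated transcripts, the longest of 2327 bases, with a mean length of 1706. With all annotated exons (2476 bases) *Arr2* was 2.41-fold ± 0.0305 above *Arr1*, with the longest transcript 2.26-fold ± 0.0287, and with the shortest coding transcript (1356 bases) 1.32-fold ± 0.0167 (SD, n = 3). Which *Arr1* transcript is used in these heads was not measured. *Arr2* was the higher of the pair in every case.

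The arrestins were also set against the rhodopsins. *ninaE*, which encodes Rh1, the opsin of the outer photoreceptors R1 to R6, had 20659, 22791 and 22164 CPM, a mean of 21871 CPM ± 1096 (SD, n = 3). Per kilobase of exon, the summed level of both arrestins was 0.622 ± 0.0135 of that of *ninaE* and 0.543 ± 0.0114 of the sum of the 7 rhodopsin genes (SD, n = 3). The ratio to *ninaE* was 0.632, 0.628 and 0.607 in replicates 1, 2 and 3, a spread far smaller than the level itself. With the shortest coding transcript as length it was 0.773 ± 0.0175. Both arrestins lay far above *krz*, the nonvisual β-arrestin gene. *krz* had 68.2 CPM ± 5.86, and per kilobase of all exons *Arr1* was 195-fold and *Arr2* 469-fold above it. These ratios were, with the shortest coding transcripts, 134-fold and 177-fold.

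The enzymes that add and remove rhodopsin phosphates were far less abundant than the arrestins. *Gprk1* (FBgn0260798, chromosome 2R, 4322295 to 4471060, minus strand) encodes the kinase that phosphorylates rhodopsin in the fly eye. The gene spans 148766 bases, of which annotated exons make up 1.69%. It had 1044, 796 and 699 counts, or 125, 108 and 111 CPM, a mean of 114.9 CPM ± 9.13 (SD, n = 3). Replicate 1 was the highest, and the interval of replicate 1 (118 to 133 CPM) did not overlap that of replicate 2 (101 to 116 CPM). *Gprk2*, a kinase with roles in Hedgehog signalling, had almost the same level in counts, 117.2 CPM ± 3.15. The log2 ratio of *Gprk1* to *Gprk2* was -0.031 ± 0.13 in counts, within the spread between libraries. Per kilobase *Gprk1* was the higher by a log2 value of 0.87 ± 0.13, in 3 of 3 libraries.

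*rdgC* (FBgn0265959, chromosome 3L, 20248080 to 20265554, plus strand) encodes a serine/threonine phosphatase with calcium-binding EF hands that is regulated by calmodulin. It had 2458, 1974 and 1953 counts, or 295, 269 and 310 CPM, a mean of 291 CPM ± 21.0 (SD, n = 3). Replicate 2 was the lowest, and the interval of replicate 2 (257 to 281 CPM) lay below those of replicates 1 and 3. The 5 annotated transcripts of *rdgC* cover 5299 exon bases. Per kilobase it reached 55.0 CPM ± 3.96, above *Gprk1* at 45.6 CPM ± 3.63, with a log2 difference of 0.27 ± 0.13. Its partner calmodulin (*Cam*), which also serves many other enzymes, lay higher at 494 CPM per kilobase ± 14.3 (SD, n = 3).

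*rdgA* led the lipid-cycle genes. *rdgA* (FBgn0261549, chromosome X, 8907068 to 9029476, plus strand) encodes the diacylglycerol kinase of the photoreceptor, which turns the product of phospholipase C into phosphatidic acid. It had 10436, 7844 and 8825 counts, or 1252, 1067 and 1401 CPM, a mean of 1240 CPM ± 167 (SD, n = 3). The intervals of the 3 libraries did not overlap. Replicate 3 was 1.31-fold above replicate 2, the widest span of any of the 10 genes.

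*rdgB* (FBgn0003218, chromosome X, 13762752 to 13779488, plus strand) encodes the phosphatidylinositol transfer protein at the membrane contact sites beneath the rhabdomere. It had 3101, 2416 and 2629 counts, or 372, 329 and 417 CPM, a mean of 373 CPM ± 44.3 (SD, n = 3). Again replicate 3 was the highest and replicate 2 the lowest, a span of 1.27-fold. No intervals overlapped, as for *rdgA* and both arrestins. Upstream on the same strand, 1204 bases away, lies *Yp3*, a yolk protein gene with 4699, 7395 and 4991 CPM in replicates 1, 2 and 3. The other yolk protein genes, *Yp1* and *Yp2*, were also highest in replicate 2, at 12147 and 5630 CPM. The pattern of *Yp3* was thus not particular to the neighbour of *rdgB*, and a link between the neighbours was not tested.

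*rdgA* and *rdgB* moved together between libraries, highest in replicate 3 and lowest in replicate 2. Among the members, *rdgC* and *ninaB* had the same order. Of the other listed genes, *norpA*, *Pis*, *Pi4KIIIalpha*, *PIP5K59B*, *Dgk*, *krz* and *Rh7* had it as well. The share of all genes with this order is not given here. The ratio of *rdgA* to *rdgB* was steady, at a log2 value of 1.73 ± 0.029 in counts (SD, n = 3, *rdgA* higher in 3 of 3 libraries). Both genes have 11 annotated transcripts and long exon sums, 13764 bases for *rdgA* and 9281 for *rdgB*. Per kilobase of all exons *rdgA* was 2.24-fold ± 0.0446 above *rdgB*, and per kilobase of the shortest coding transcript 3.69-fold ± 0.0735 (SD, n = 3). Against their relatives, *rdgA* was 7.86-fold above *Dgk* and 2.43-fold above *Dgkepsilon* per kilobase, both of them other diacylglycerol kinases. *rdgB* was 3.23-fold above *rdgBbeta*, which encodes a smaller transfer protein of the same family. The ratios were larger with the shortest coding transcripts, at 11.6-fold, 8.19-fold and 6.89-fold. Each of these differences had the same direction in 3 of 3 libraries. The 10 comparisons with relatives, of which those of the arrestins, *Gprk1* and the chromophore receptors are the others, were chosen after the values were seen, and each gave p = 0.25 per kilobase in the exact sign-flip permutation test, also 0.25 after Benjamini-Hochberg adjustment.

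*ninaA* was low in counts and short. *ninaA* (FBgn0002936, chromosome 2L, 877302 to 878270, plus strand) encodes a membrane-bound cyclophilin that escorts Rh1 through the secretory pathway. It had 680, 571 and 486 counts, or 81.6, 77.7 and 77.2 CPM, a mean of 78.8 CPM ± 2.43 (SD, n = 3). All 3 intervals overlapped, and the coefficient of variation, 3.08%, was no larger than the 4.16% that counting alone gives. With only 871 exon bases, *ninaA* moved up per kilobase to the level of *rdgA*, at 90.5 CPM ± 2.79 (SD, n = 3), a level that 762 of 9901 detected genes with a length exceeded. By the other 3 lengths *rdgA* was the higher, from 1.35-fold to 3.50-fold. Per kilobase *ninaE* was 152-fold above its chaperone.

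All 871 exon bases of *ninaA* lie, on the opposite strand, within exons of *CG15824*, a gene of 7072 exon bases. *CG15824* had 2, 6 and 1 counts in replicates 1, 2 and 3, or 0.405 CPM ± 0.359. The libraries were strand-specific, while the strand setting of the counting is not given in the sources used here. Opposite-strand exon overlaps touched 144 of the 2164 exon bases of *ninaB* (from *f-cup* and *Adgf-D*) and 528 of the 5563 bases of *santa-maria* (from *CG5973*, 285 CPM ± 7.65). No annotated exon of another gene on the same strand overlapped an exon of any of the 10 genes.

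The 3 chromophore genes differed widely in level, with *ninaD* far below the others on either scale. *ninaB* (FBgn0002937, chromosome 3R, 13700565 to 13703164, plus strand) encodes the enzyme that cleaves and isomerizes carotenoids to yield retinal. It had 1291, 1131 and 1024 counts, or 155, 154 and 163 CPM, a mean of 157 CPM ± 4.73 (SD, n = 3). Its intervals overlapped, and its coefficient of variation of 3.01% was close to the counting value of 2.95%.

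*santa-maria* (FBgn0025697, chromosome 2L, 7445355 to 7451244, minus strand) encodes a class B scavenger receptor that acts in carotenoid uptake in neurons and glia of the head. It had 1873, 1681 and 1338 counts, or 225, 229 and 212 CPM, a mean of 222 CPM ± 8.52 (SD, n = 3). It was highest in replicate 2 and lowest in replicate 3, and its intervals overlapped. The log2 ratio of *santa-maria* to *ninaB* was 0.50 ± 0.099 in counts and -0.86 ± 0.099 per kilobase, with the same sign in 3 of 3 libraries each. The latter holds for the length of all exons, and with the shortest coding transcript *santa-maria* (96.4 CPM per kilobase) lay above *ninaB* (72.6).

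*ninaD* (FBgn0002939, chromosome 2L, 18081628 to 18083608, plus strand) encodes the related scavenger receptor known for carotenoid uptake in the midgut, a tissue that heads do not contain. It had 89, 84 and 83 counts, or 10.7, 11.4 and 13.2 CPM, a mean of 11.8 CPM ± 1.28 (SD, n = 3). The intervals (8.68 to 13.1 CPM in replicate 1, 10.6 to 16.3 in replicate 3) overlapped. The coefficient of variation of 10.9% was close to the 10.8% that counting gives, so no difference between libraries was detectable at this depth. *ninaD* lies 320 bases downstream of *Arr1* on the same strand, and *Arr1* had 6223 CPM. Among the scavenger receptors, *emp* had 438 CPM ± 26.6 and *crq*, a receptor of haemocytes, 200.1 CPM ± 6.1. Per kilobase *emp* was 3.11-fold above *santa-maria* and 18.8-fold above *ninaD*, and *crq* was 1.76-fold and 10.7-fold above them. With the shortest coding transcripts, *emp* was 2.02-fold and *crq* 1.07-fold above *santa-maria*, and 22.1-fold and 11.8-fold above *ninaD*.

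Ordered by counts, the 10 genes ran *Arr2*, *Arr1*, *rdgA*, *rdgB*, *rdgC*, *santa-maria*, *ninaB*, *Gprk1*, *ninaA* and *ninaD*. Each neighbour in that order differed by more than the SD of their log2 ratio, from 0.35 ± 0.070 for *rdgB* over *rdgC* to 2.74 ± 0.19 for *ninaA* over *ninaD*. All 45 pairs kept their sign in 3 of 3 libraries. Counts rise with transcript length, however, and levels of different genes are comparable only per length. Per kilobase of exon the order was *Arr2*, *Arr1*, *ninaA*, *rdgA*, *ninaB*, *rdgC*, *Gprk1*, *rdgB*, *santa-maria* and *ninaD*, and 12 of the 45 pairs turned their sign.

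The step from *Arr1* to *ninaA* per kilobase was 27.7-fold, and the arrestins made up 95.1% ± 0.438 of the summed CPM per kilobase of the 10 genes. From there to *santa-maria* the levels fell only from 90.5 to 39.9 CPM per kilobase. Of the neighbours in that order, *ninaA* and *rdgA* (log2 0.016 ± 0.20), *Gprk1* and *rdgB* (0.19 ± 0.19), and *rdgB* and *santa-maria* (0.0031 ± 0.23) did not differ beyond their spread. The other 6 neighbouring pairs did, as did 42 of all 45 pairs. In the exact sign-flip permutation test each pair had p = 0.25 in counts, also 0.25 after Benjamini-Hochberg adjustment over the 45 pairs, and per kilobase the smallest adjusted p was 0.268.

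**Figure D3:**
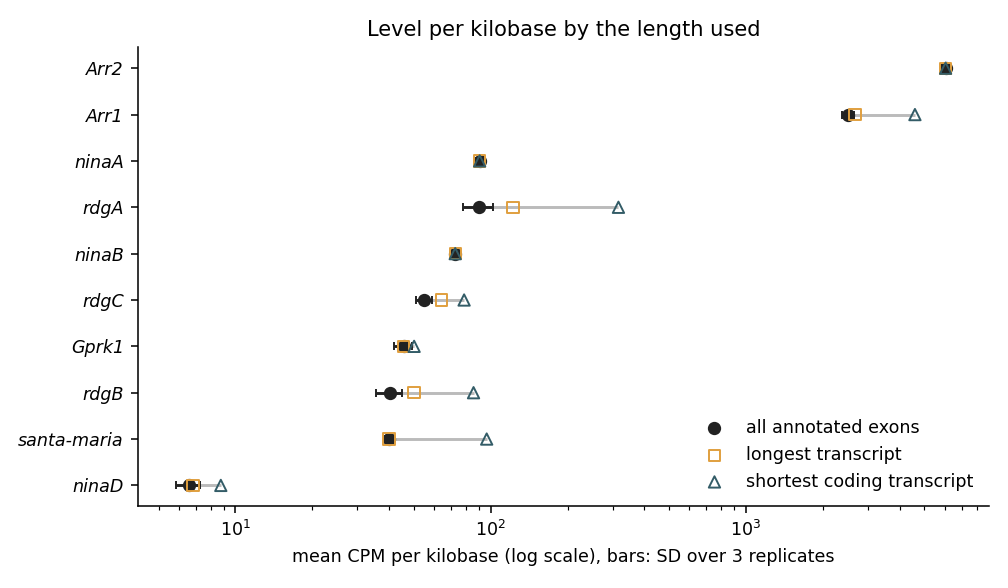
Mean CPM per kilobase (x axis, log scale) of the 10 genes, divided by the length of all annotated exons (black, with the SD over the 3 replicates), the longest transcript (squares) or the shortest coding transcript (triangles). Grey lines join the values of a gene. *rdgA* spans 90.1 to 316, *santa-maria* 39.9 to 96.4 and *Arr1* 2513 to 4589 CPM per kilobase, and *Arr2*, *ninaA* and *ninaB* have a single transcript and do not move.

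The middle of the per-kilobase order depended on the isoform length. With the shortest coding transcript *rdgA* reached 316 CPM per kilobase, 3.50-fold ± 0.497 above *ninaA*, and *santa-maria*, next after *rdgA*, 96.4. The arrestins at the top, in the same order, and *ninaD* at the bottom were the same under each of the 4 lengths tried. The arrestin part of the summed level ran from 93.0% to 95.1%.

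Relative to *ninaE*, all 10 genes were lower in 3 of 3 libraries, in counts and per kilobase. Per kilobase the log2 ratio to *ninaE* ran from -1.19 ± 0.029 for *Arr2* and -2.45 ± 0.040 for *Arr1* to -11.03 ± 0.13 for *ninaD* (SD, n = 3). The remaining 7 lay between -7.25 ± 0.11 for *ninaA* and -8.43 ± 0.093 for *santa-maria*. The ratio was tightest for the arrestins and widest for *rdgA* (SD 0.23) and *rdgB* (SD 0.21). Each ratio in counts had p = 0.25 in the exact sign-flip permutation test, the smallest possible, and 0.25 after Benjamini-Hochberg adjustment over the 10 genes.

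The spread between replicates was compared with that of all genes of like abundance. In edgeR's quasi-likelihood fit over 9049 genes, 0 of the 10 members had replicates that differed more than expected at an adjusted p under 0.05, against 0.32% of all genes tested. At an unadjusted p under 0.05 the count was also 0 of 10, against 4.64%, and DESeq2 marked 0 of 10 as dispersion outliers, against 0.875%. The smallest edgeR p-values were 0.109 for *rdgB* and 0.151 for *rdgA* (adjusted p 0.992 for both, Benjamini-Hochberg). At the other end stood *Arr2*, whose quasi-dispersion was 0.0204 times the value fitted for its abundance, and *Arr1* with 0.052 times. Leaving out a replicate changed the number of genes called over the whole table from 29 to 55 without replicate 1, 57 without replicate 2 and 44 without replicate 3, with 0 of the 10 among them. Over all settings tried, the smallest adjusted edgeR p of any of the 10 was 0.953.

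With no member past the test, the values per library are a description. In CPM, 5 of the 10 genes were lowest in replicate 2, namely *rdgA*, *rdgB*, *rdgC*, *Gprk1* and *ninaB*, while *Arr1*, *Arr2* and *santa-maria* were highest there. No share over all genes is given here for that tally. With values scaled by the trimmed mean of M-values (TMM), *rdgA* in replicate 2 had a log2 ratio of -0.36 to the mean of the other replicates, *rdgB* -0.31, *rdgC* -0.22 and *Gprk1* -0.17. The ratio was -0.11 for *ninaD*, -0.095 for *ninaB* and -0.081 for *ninaA*. It was 0.015 for *santa-maria*, 0.052 for *Arr2* and 0.083 for *Arr1*. Over all tested genes the median of this ratio was 0.0025, and 34.7% to 75.2% of genes were lower in replicate 2, depending on the length class. On that scale *ninaA* was also lowest in replicate 2, at 75.9 CPM, and *santa-maria* was highest in replicate 1, at 228 CPM. In replicate 3 the ratio was 0.29 for *rdgA*, 0.27 for *rdgB*, 0.26 for *ninaD*, 0.15 for *rdgC*, 0.092 for *ninaB* and 0.0009 for *Arr2*. It was -0.021 for *Arr1*, -0.028 for *ninaA*, -0.058 for *Gprk1* and -0.076 for *santa-maria*.

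Over all genes the ratio differed by transcript length, a pattern that the members shared only in part. Among 8863 tested genes with a length, the fifth with the longest exons (4313 bases or more) had a median log2 ratio of -0.11 in replicate 2 and 0.11 in replicate 3, and the fifth with the shortest (up to 1200 bases) had 0.084 and -0.10. In replicate 2, 75.2% of the longest and 34.7% of the shortest genes were lower than in the other libraries. *rdgA*, *rdgB*, *rdgC* and *santa-maria* belong to the longest class. With the median of their class subtracted, a step added after the data were seen, the replicate 2 values became -0.26 for *rdgA*, -0.21 for *rdgB* and -0.11 for *rdgC*, and 0.12 for *santa-maria*. The values of the *rdg* genes thus came closer to 0, and that of *santa-maria* moved away from it. Among the shorter members, where the class medians were positive, *Gprk1* (-0.21), *ninaA* (-0.16), *ninaD* (-0.16) and *ninaB* (-0.13) moved further below 0, *Arr1* came to 0.046 and *Arr2* to -0.0010. For replicate 3 the same step gave 0.33 for *ninaD*, which had only 83 counts there. It gave 0.18 for *rdgA*, 0.16 for *rdgB*, 0.13 for *ninaB* and -0.19 for *santa-maria*. The remaining members lay between -0.016 (*Gprk1*) and 0.071 (*ninaA*). Summed markers also differed between libraries, with neurons, glia and muscle lowest and fat body and pigment cells highest in replicate 2. Single markers did not all follow these sums. *repo* and *moody* of glia were highest in replicate 2, and *brp* of neurons was lowest in replicate 1. *Tm2* and *up* of muscle were lowest in replicate 3. *Lsp2* of the fat body was highest in replicate 1. *Pdh* supplied 2273 of the 2382 CPM of pigment cells in replicate 2, where *w* was lowest. The part of transcript length and of cell types in the differences between libraries was not tested.

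**Figure D4:**
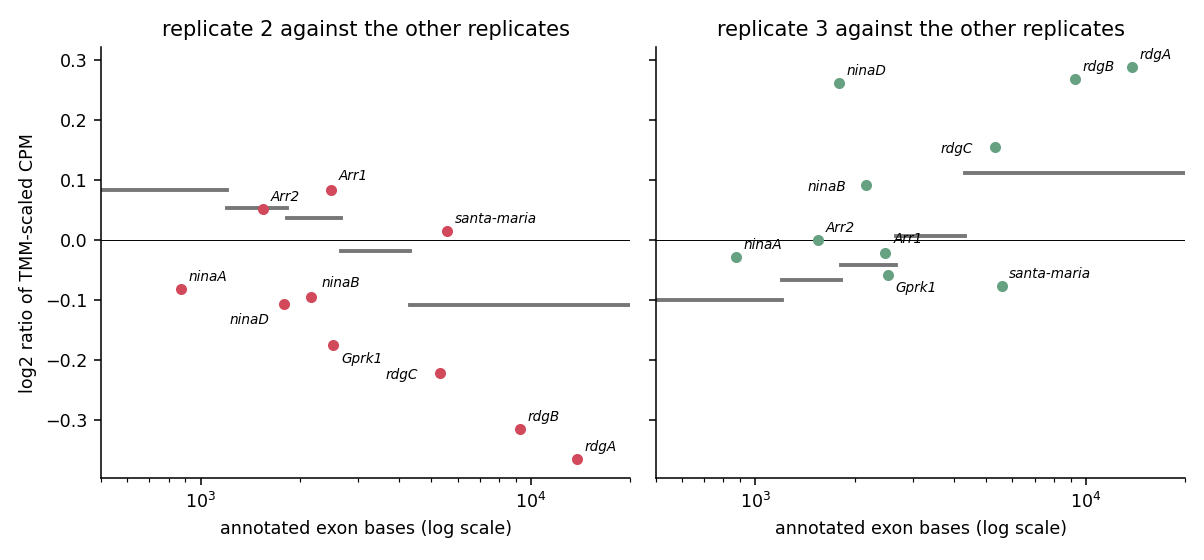
Log2 ratio of TMM-scaled CPM in replicate 2 (left) and replicate 3 (right) against the mean of the other replicates (y axis) by annotated exon bases (x axis, log scale) for the 10 genes (points). Grey bars are the medians of 5 length classes of all tested genes, drawn up to the edges of the plot. *rdgA* and *rdgB* lie lowest on the left (-0.36 and -0.31) and highest on the right (0.29 and 0.27). Both lie beyond the class medians of -0.11 and 0.11. On the right *ninaD* follows at 0.26, where the median of its class is -0.066.

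The other genes of the same processes give the setting of the 10. Of 34 listed genes, 31 were in the table under the matched ID and 29 were detected. In the edgeR fit 0 of the 29 passed the adjusted threshold, DESeq2 marked 0 as dispersion outliers, and 1 passed without adjustment, the rhodopsin gene *Rh7* with 58.2, 55.5 and 80.2 CPM. For *Rh7* the edgeR p was 0.0161 and the adjusted p 0.766. The median level was 63.8 CPM per kilobase for the 10 members and 70.3 for the 31 listed genes, against 12.3 for all detected genes.

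In the phosphoinositide cycle, 10 of 12 listed genes were in the table. The highest per kilobase of all exons was *norpA*, the phospholipase C of phototransduction, at 247 CPM (225 to 269 over the libraries), and the lowest was *Dgk* at 11.4 CPM ± 0.714. *Cds*, which makes CDP-diacylglycerol, and *Pis*, which makes phosphatidylinositol, had 246 CPM ± 9.19 and 215 CPM ± 10.2 per kilobase. The level of *Cds* was within the range of *norpA*. Both *Cds* and *Pis* exceeded *rdgA* (90.1) and *rdgB* (40.2) on that scale in every library. With the shortest coding transcripts the order against *rdgA* turned, with 316 for *rdgA*, 268 for *Cds* and 258 for *Pis*. *laza*, the lipid phosphatase that opposes RDGA, had 40.5 CPM per kilobase ± 1.69, lower than *rdgA* in every library.

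Among the other chromophore genes, all 6 of which were detected, *Pdh*, a dehydrogenase of retinal pigment cells that acts on retinoids, was the highest at 2261 CPM per kilobase ± 189. The lowest was *ninaG*, an oxidoreductase needed for the mature chromophore, at 16.2 CPM ± 0.397. *pinta*, a retinoid-binding protein of pigment cells, had 21.7 CPM ± 3.25. Against these, *ninaB* (72.6) and *santa-maria* (39.9) were intermediate, and *ninaD* (6.58) was lower than each of the 6.

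Of the folding and transport genes, *Cnx99A*, the calnexin that also assists Rh1, was the highest at 103 CPM per kilobase ± 5.21, close to *ninaA* at 90.5. *Xport-A*, a chaperone gene of TRP and Rh1, was listed at 0 in each library, and *Xport-B* had 1, 2 and 0 counts. All 949 exon bases of *Xport-A* (chromosome 3R, 19914396 to 19915412, minus strand) lie within the exons of *Xport-B* on the same strand. How reads shared by several genes were counted is not given in the sources used here. Its part in the values at 0 was not tested. Among the rhodopsins, *Rh7* was the lowest at 16.1 CPM per kilobase ± 3.37, and *Rh2* to *Rh6* lay between 170.1 and 674, above each member except the arrestins by that length. With the shortest coding transcript *rdgA* (316) exceeded *Rh2* (192) and *Rh5* (198), and with the mean transcript length *rdgA* (214) exceeded *Rh2* (192) and *Rh5* (183).

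**Figure D5:**
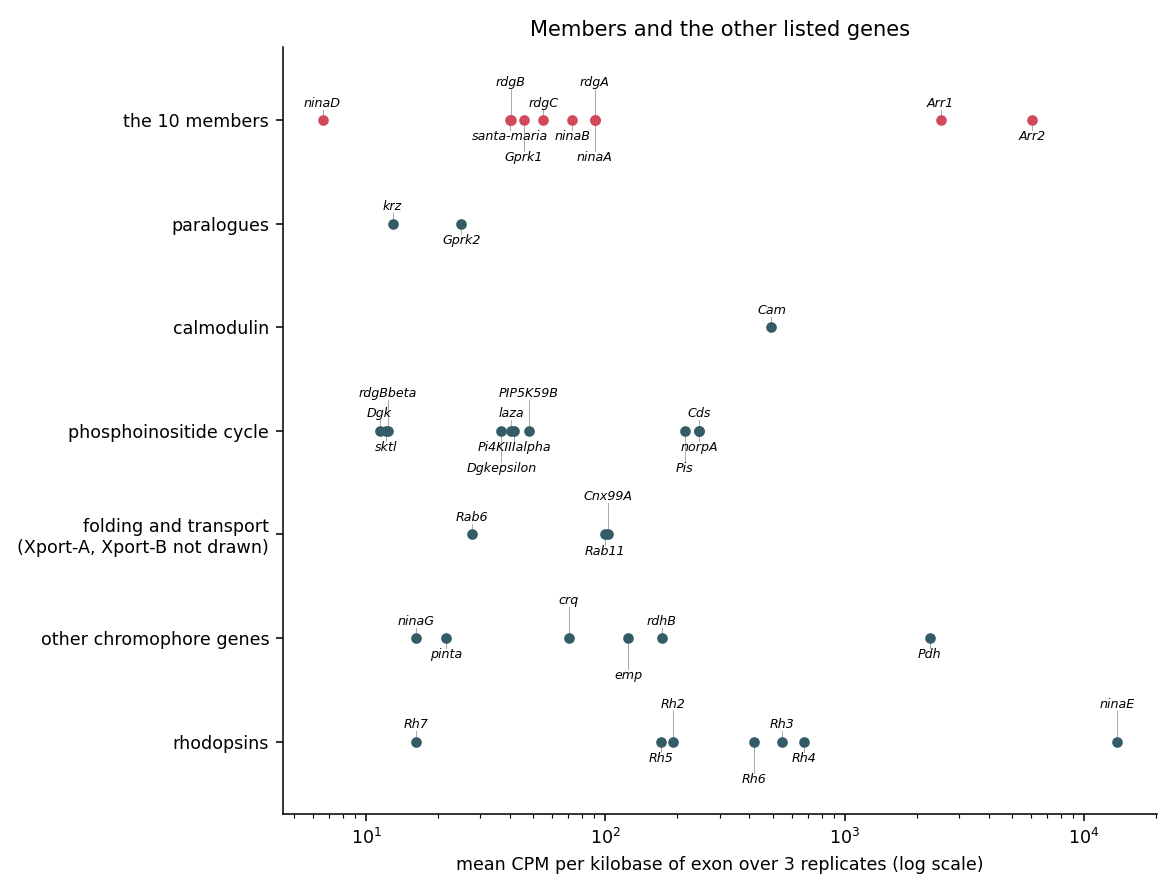
Mean CPM per kilobase of exon over the 3 replicates (x axis, log scale) of the 10 members (red) and of the other listed genes of the same processes (blue, grouped by row). *Xport-A* and *Xport-B* are not drawn. *Arr1* (2513) and *Arr2* (6051) lie among the rhodopsins and *Pdh*, and the other members lie within the range of the other lists or, for *ninaD* (6.58), below it.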

How the data were processed

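Heads of untreated wild-type adults gave 3 libraries. Per the labels, 150 ng of total RNA went into the TruSeq Stranded mRNA kit. The authors deposited raw read counts per FlyBase gene ID. The submitters' processing notes name STAR 2.7.4a, Subread, featureCounts and dm6, and the methods name snakePipes with Ensembl release 96. The strand setting and the treatment of shared reads are not given in the sources used here. No library column was left unused.

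The members, lists and tests were chosen with earlier results of these data known. Every member is named. Of each other list, the highest and lowest gene per kilobase are named, with any gene past the replicate test. Further genes of the lists (Cds, Pis, Pi4KIIIalpha, PIP5K59B, laza, pinta, emp, crq, Dgkepsilon, rdgBbeta, Xport-B, Rh2, Rh5 and Rh6) and neighbouring or overlapping genes were singled out after their values were seen. So were Yp1, Yp2 and the other cell type markers named singly. Positions, symbols and exon lengths come from Ensembl release 115 (BDGP6, dm6 coordinates), which matched 17252 genes (98.3%). CdsA, PI4KIIIalpha and Rdhb were matched through RefSeq synonyms to Cds, Pi4KIIIalpha and rdhB. Pld, vib, Rab1 and para were not analysed here.

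CPM used the total of all gene counts, and CPM per kilobase the union of annotated exons. Shares carry Wilson 95% intervals, which cover counting error only. Log2 ratios had 0.5 count added and were tested over libraries by flipping their signs in an exact permutation test, two-sided. Nothing says that the replicates came from separate flies, so their spread may be technical. Replicate spread was fitted with edgeR 4.0.16 (R 4.3.3, TMM, filterByExpr, intercept only), each quasi-dispersion being compared with its prior in an F test of the upper tail, and p-values were adjusted by Benjamini-Hochberg over all genes at 0.05. The procedure was first run on simulated data with changes larger than any span between libraries of a member. Its power for spans as small as those of the members was not tested. DESeq2 1.42.0 dispersion outliers, other scalings, lengths, filters and pseudocounts, and leaving out each replicate were alternatives. Other lengths for the comparisons with relatives were added after seeing the data. Sequences were not used here.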

Additional observations from a re-analysis of the deposited data

How the results depend on the processing

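No paired analysis was possible because no second group exists. Of 597 alternative values of 115 results, 506 stayed within the spread between replicates or kept their direction, 79 moved by more than it and 12 reversed. Of the 342 that leave out no library, 254 stayed or kept their direction. Many values were kept by construction, so these tallies do not measure robustness. Leaving out 1 of 3 libraries cannot move their mean by more than the SD, nor reverse a ratio of equal sign in all 3. A pseudocount added to both genes cannot turn such a ratio either. The summed share of the 10 genes became 1.92% without mitochondrial genes and 2.04% without the 10 most abundant genes in the denominator, by construction, and 1.78% to 1.84% when a replicate was left out. Their median rank was 93.9% among genes with at least 1 count, 91.3% where each library had to hold 10 counts and 89.1% per kilobase, and 92.1% to 92.3% when a replicate was left out. Dividing by exon length reversed the log2 ratios of rdgA to ninaA (-0.016), of rdgB to rdgC (-0.46), ninaB (-0.86), Gprk1 (-0.19) and ninaA (-1.18), of rdgC to ninaB (-0.40) and ninaA (-0.72), of santa-maria to ninaB (-0.86), Gprk1 (-0.19) and ninaA (-1.18), and of ninaB (-0.32) and Gprk1 (-0.99) to ninaA. The genes called by edgeR numbered 29, and 118 without a filter, 113 as DESeq2 outliers and 44 to 57 with a replicate left out (55 without replicate 1, 57 without replicate 2, 44 without replicate 3), and 0 of the 10 were among them in each case. The causes of the changed counts were not tested. At 83 to 89 counts per library, ninaD is limited by counting error.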
